A study of Mus musculus with 8 samples.

Results

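The pore-forming voltage-gated sodium channels of the mouse, the Nav alpha subunits, were examined in the lumbar spinal dorsal horn of mice without miR-96. The genes were taken by symbol: Scn1a, Scn2a, Scn3a, Scn4a, Scn7a, Scn8a, Scn9a, Scn10a and Scn11a, which are 9 of the 49585 gene identifiers measured. The 8 polyA RNA-seq libraries came from adult C57BL/6J mice, 4 of them miR-96 knock-out and 4 wild type. The series describes 4 mice of each genotype, though no label ties a library to a mouse, so the p-values speak of these libraries and their spread may be technical in part. The allele, the cells it is deleted in and the sex of the mice are not stated in the labels. The comparison bears on the study's question of whether miR-96 represses sodium channel transcripts in the cord, with touch-evoked pain (allodynia) as the outcome of interest.

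A Nav alpha subunit is a single large membrane protein that forms the whole sodium pore, opens on depolarisation and inactivates within milliseconds, and so sets where and how often an axon fires. Scn1a (Nav1.1), Scn2a (Nav1.2), Scn3a (Nav1.3) and Scn8a (Nav1.6) are the channels of central neurons. Scn9a (Nav1.7), Scn10a (Nav1.8) and Scn11a (Nav1.9) are known mainly from sensory neurons of the dorsal root ganglion, Scn4a (Nav1.4) is the channel of skeletal muscle, and Scn7a encodes Nax, a sodium-sensing relative found in glia. A microRNA lowers its targets by pairing its seed, bases 2 to 8, with sites that lie mostly in the 3′ untranslated region (UTR) of a messenger RNA.

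miR-96 is made from a cluster on chromosome 6 with miR-182 and miR-183, whose mature forms are shown because a match in a channel transcript can belong to more than 1 of them. Capitals mark the seed, and the sequences are RefSeq's on GRCm38.p6, minus strand:
mmu-miR-96-5p: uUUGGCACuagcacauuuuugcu
mmu-miR-182-5p: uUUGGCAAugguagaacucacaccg
mmu-miR-183-5p: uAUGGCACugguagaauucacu
The seed of miR-182 has 6 of its 7 bases in common with that of miR-96, and so has the seed of miR-183. The longest annotated 3′ UTR of each channel gene was searched on its sense strand for GTGCCAA, the match to bases 2 to 8 of miR-96, and for TGCCAAA, the match to bases 2 to 7 followed by A. The second motif serves miR-182 as well. No channel held GTGCCAA, and 5 of the 9 held TGCCAAA once each.

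The 5 matches are printed in transcript direction with 30 bases each, the match in capitals, because 4 of them lie in a shared stretch of sequence. Coordinates are on GRCm38:
Scn1a, chr2:66272786-66272815, minus strand: cctttaagaagtcaaTGCCAAActgactgt
Scn2a, chr2:65764929-65764958, plus strand: ccctcaggaggtctaTGCCAAActgactgt
Scn3a, chr2:65460404-65460433, minus strand: ctaaggagaggtccaTGCCAAActgactgt
Scn9a, chr2:66483325-66483354, minus strand: ttttacggaggtctaTGCCAAActcttttt
Scn8a, chr15:101043619-101043648, plus strand: caagtggcagggcttTGCCAAAtattcatg
In the 4 genes of chromosome 2 the match began near the start of the UTR, at base 85 in Scn1a, 115 in Scn2a, 139 in Scn3a and 79 in Scn9a. The windows were compared over their full length, which includes the match itself, the same in every window by selection. The windows of Scn1a and Scn2a were identical at 25 of 30 positions, those of Scn3a at 23 of 30 to each of them, and that of Scn9a at 19 to 21 of 30 to the other 3. The window of Scn8a was identical to the others at 13 to 15 positions, with its match at base 2946 of a 5250-base UTR. There the base before the match is T, which makes it a longer match to miR-182 (TTGCCAAA) but not to miR-96. Matches of this length are common: 25.9% of tested genes with a 3′ UTR within 20% of the length of Scn1a's held at least 1 of the miR-96 motifs, and 31.4% did for Scn2a, 37.9% for Scn3a, 37.2% for Scn9a and 53.0% for Scn8a. Scn4a, Scn7a, Scn10a and Scn11a held none.

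Values below are FPKM, fragments per kilobase of transcript scaled to the mapped total of a library. Being per length, they allow a rough comparison of level between genes. It is rough because the values of long transcripts differed between libraries, as given further below. Fold changes are log2 differences of FPKM + 1, miR-96 knock-out minus wild type, from limma fitted to the 15061 genes that averaged 1 FPKM or more over the 8 libraries, with standard errors (SE) and 95% confidence intervals. Of the 9 channels 6 were above that limit. Depth estimated from the steps of low FPKM values was 31300000 to 42700000 fragments per library, under an assumed fragment length of 200 nt. In bulk tissue, fewer cells of a type and less RNA per cell cannot be told apart.

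Scn8a, the main channel of the mature axon initial segment and node of Ranvier, was the most abundant Nav transcript in every library. It was at 157, 151, 132 and 141 FPKM in miR-96 knock-out replicates 1 to 4, against 77.0, 139, 136 and 124 FPKM in wild type replicates 1 to 4. Wild type replicate 1 stood well below the other 7 libraries, and the ranges of the genotypes overlapped. The log2 fold change was 0.32 (SE 0.18, 95% confidence interval -0.075 to 0.71, limma adjusted p = 0.62), and without wild type replicate 1 it was 0.12 (SE 0.080). Its 20 annotated transcripts are 290 to 11436 nt long, and FPKM depends on how fragments were divided among them.

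Scn1a, whose loss of function is known to weaken the firing of inhibitory interneurons, came next. It was at 91.6, 86.3, 65.1 and 77.4 FPKM in miR-96 knock-out libraries and at 44.5, 59.0, 66.2 and 81.7 FPKM in wild-type libraries. Knock-out replicates 1 and 2 were above every wild-type library, while replicates 3 and 4 lay within the wild-type range. The log2 fold change was 0.37 (SE 0.18, 95% confidence interval -0.028 to 0.76, limma adjusted p = 0.62), and 0.21 without wild type replicate 1.

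Scn2a, the channel of developing and unmyelinated axons, was the member with the lowest p. It was at 31.5, 32.3, 26.3 and 31.0 FPKM in miR-96 knock-out libraries, against 15.7, 21.3, 21.0 and 30.9 FPKM in wild-type libraries. Wild type replicate 4 reached the level of the knock-out libraries, while the other 3 wild-type libraries lay below all of them. The log2 fold change was 0.47 (SE 0.17, 95% confidence interval 0.079 to 0.85, limma adjusted p = 0.62), and 0.32 without wild type replicate 1.

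Scn3a, which is abundant in the embryonic nervous system and low in the adult, was at 6.40, 6.27, 5.03 and 5.93 FPKM in miR-96 knock-out libraries and at 3.65, 4.04, 4.84 and 6.49 FPKM in wild-type libraries. Again wild type replicate 4 was the highest of its group, here above every knock-out library. The log2 fold change was 0.28 (SE 0.15, 95% confidence interval -0.063 to 0.63, limma adjusted p = 0.62).

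Scn9a, known from inherited disorders of pain, was at 2.33, 2.29, 1.32 and 2.17 FPKM in miR-96 knock-out libraries, against 1.40, 1.16, 1.07 and 1.86 FPKM in wild-type libraries. Knock-out replicate 3 lay among the wild-type libraries and the other 3 knock-out libraries lay above all of them. The log2 fold change was 0.35 (SE 0.16, 95% confidence interval -0.019 to 0.71, limma adjusted p = 0.62), and 0.47 without knock-out replicate 3. An antisense gene, Gm13629, overlaps 180 nt of its exons and averaged 12.8 FPKM in miR-96 knock-out and 10.2 FPKM in wild-type libraries, several times the level of Scn9a. The use of strand in counting is not given in the sources used here, so reads of the shared bases cannot be told apart.

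Scn7a was at 2.64, 1.70, 2.12 and 2.00 FPKM in miR-96 knock-out libraries and at 1.18, 1.86, 1.28 and 2.50 FPKM in wild-type libraries, which overlapped. Its log2 fold change was 0.22 (SE 0.17, 95% confidence interval -0.17 to 0.61, limma adjusted p = 0.63). It was 0.14 without knock-out replicate 1, while leaving out wild type replicate 1 gave 0.13 and leaving out wild type replicate 4 gave 0.35. It is the channel above the limit that held no miR-96 motif in its longest 3′ UTR, and the 5 with a motif ranged from 0.28 to 0.47. The gap depends on the settings. With 0.1 added to FPKM in place of 1, Scn7a was at 0.34, and the 5 ranged from 0.32 (Scn8a) to 0.53 (Scn9a). With the trend on transcript length removed from each library, Scn7a was at 0.036, and the 5 ranged from 0.037 (Scn8a) to 0.24 (Scn2a). The part of the motif was not tested. Among the 13050 tested genes with a 3′ UTR of at least 50 nt, the 2671 with a miR-96 motif had a median log2 fold change of 0.061 and the others -0.0045. The split was as large for the other microRNAs of the cluster, at 0.068 against -0.0074 for miR-182 and 0.066 against -0.0019 for miR-183. A longer 3′ UTR held a miR-96 motif more often. The share was 6.3% of tested genes near the 469 nt of Scn10a and 53.0% near the 5250 nt of Scn8a. Fold changes also differed by transcript length, with medians of -0.14 at 949 to 1627 nt and 0.22 in the longest 10%. The groups with and without a motif were not matched for length.

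**Figure D1:**
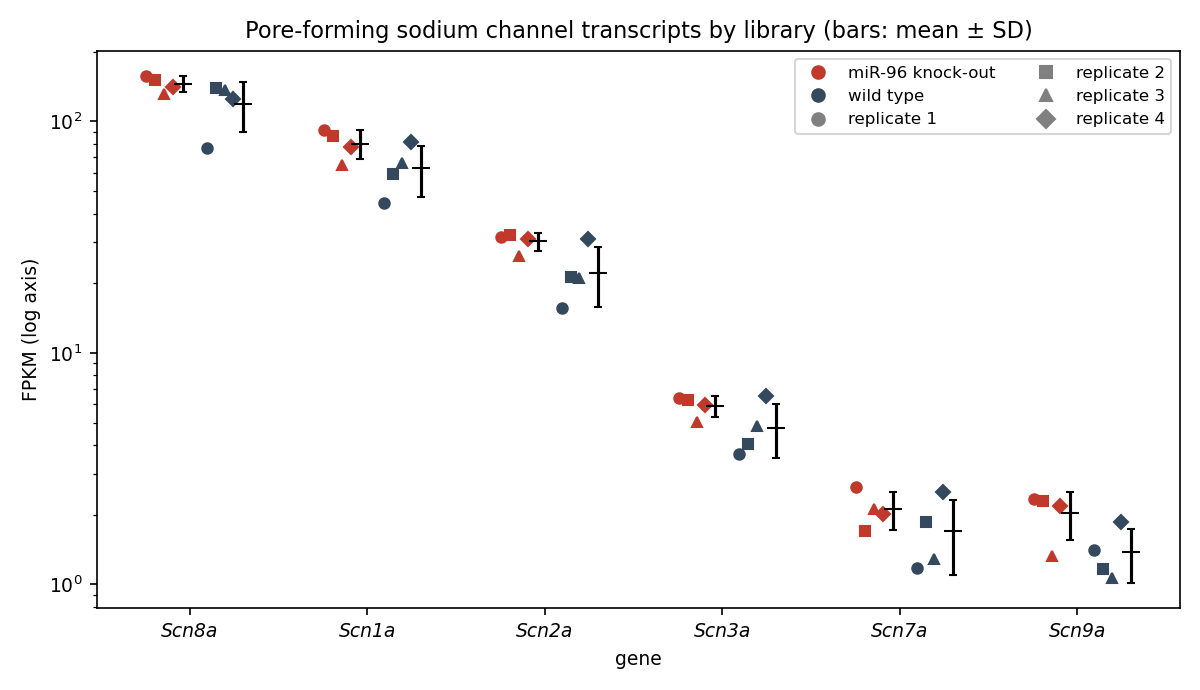
FPKM (log axis) of the 6 Nav alpha genes above a mean of 1 FPKM, miR-96 knock-out libraries in red left of wild-type libraries in blue, a symbol per replicate, with the mean and SD of each genotype beside them. Scn8a, Scn1a and Scn2a lead, and wild type replicate 1 is the lowest library for 5 of the 6 genes.

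None of the 6 channels passed limma's adjusted p of 0.05, and over all tested genes the share that passed was 0%. Scn2a was the single channel with an unadjusted p under 0.05, and it was higher in knock-out. Of all tested genes 5.52% had such a p, 3.69% with a higher and 1.83% with a lower value in knock-out. All 6 had a log2 fold change above 0, as did 53.1% of all tested genes, and their median was 0.33 against 0.014. Without wild type replicate 1 all 6 were still above 0, from 0.12 for Scn8a to 0.36 for Scn9a, against a median of 0.0013 over all tested genes. The share of tested genes above 0 was not counted in that fit. Nor was it counted among the 10% of genes with the longest transcripts, which include all 6 channels. No channel had every knock-out library above every wild-type library, a pattern found in 1.91% of tested genes.

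The order of the mean levels of the 6 tested channels was the same in both genotypes. Knock-out libraries ran from Scn8a (145 ± 11.3 FPKM, SD, n = 4) over Scn1a, Scn2a and Scn3a to Scn7a (2.11 ± 0.392) and Scn9a (2.03 ± 0.477), and no neighbours before Scn7a and Scn9a had overlapping ranges. In wild type Scn8a and Scn1a overlapped across libraries, since the lowest Scn8a value, 77.0 FPKM, was below the highest Scn1a value, 81.7 FPKM. Scn7a and Scn9a did not differ beyond their spread in either genotype.

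The proportions of the subunits were compared because a share of the summed FPKM of the 9 genes does not change when a library is multiplied by a factor. Scn8a made up 53.9%, 54.0%, 56.7% and 54.3% of the sum in miR-96 knock-out libraries, against 53.7%, 61.5%, 59.0% and 50.2% in wild-type libraries. The knock-out values lay within the wild-type range, and the difference of the means was -1.37 percentage points (exact permutation test, two-sided, p = 0.60). Scn1a held 30.02% ± 1.47 in knock-out and 29.7% ± 2.98 in wild type (SD, n = 4 each, exact permutation p = 0.89). Scn2a held 11.4% ± 0.481 in knock-out and 10.5% ± 1.56 in wild type (exact permutation p = 0.31). Scn3a made up 2.22% ± 0.0520 in knock-out and 2.26% ± 0.395 in wild type (exact permutation p = 0.97).

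Scn7a and Scn9a were each under 1.1% of the sum in every library. Scn7a averaged 0.798% in knock-out and 0.802% in wild type, and Scn9a 0.756% in knock-out and 0.676% in wild type (exact permutation p = 0.94 and p = 0.63). Scn2a, the channel of developing and unmyelinated axons, was also set against Scn8a, the main channel of the mature axon initial segment and node. The log2 ratio of Scn2a to Scn8a was -2.26 ± 0.0699 in knock-out and -2.43 ± 0.340 in wild type (SD, n = 4 each, exact permutation p = 0.37). These were 7 tests, without adjustment over them, and with 4 against 4 libraries the smallest two-sided p is 0.0286. The sum of the 9 genes was 292, 280, 232 and 259 FPKM in knock-out libraries, against 143, 227, 231 and 248 FPKM in wild-type libraries, 25.3% higher on average in knock-out. Knock-out replicate 3 lay below wild type replicate 4 in this sum, and wild type replicate 1 stood far below the other 7 libraries. Without wild type replicate 1 the difference of the means was 30.8 FPKM, against 53.7 FPKM with all libraries.

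**Figure D2:**
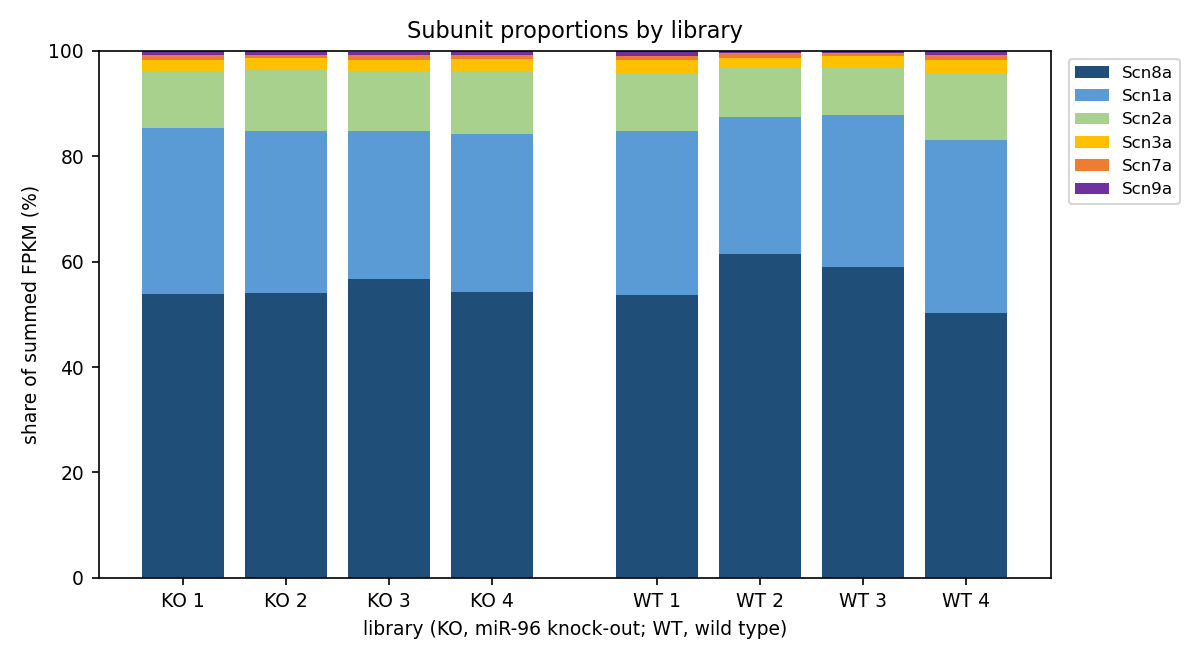
Share of each Nav alpha gene in the summed FPKM of the 9 genes (%), stacked, for the 4 miR-96 knock-out (KO) and the 4 wild-type (WT) libraries. Scn8a takes 53.9% to 56.7% in knock-out and 50.2% to 61.5% in wild type.

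All 6 channels have long transcripts, and the values of long transcripts differed between libraries. The 10% of tested genes with the longest annotated transcripts, 6690 to 40378 nt, include all 6 channels (7338 nt for Scn7a to 11436 nt for Scn8a) and had a median log2 fold change of 0.22. The 10% from 949 to 1627 nt had a median of -0.14. Deviation here is the log2(FPKM + 1) value of a gene in a library minus its mean over the 8 libraries. In wild type replicate 1 the longest 10% had a median deviation of -0.38 and the 6 channels a mean deviation of -0.50. In wild type replicate 4 these were 0.082 and 0.18, and in knock-out replicate 1, the library with the highest channels, 0.18 and 0.31. Knock-out replicate 3, the lowest knock-out library for the channels, was at 0.025 and -0.028.

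With the trend on transcript length removed from each library, the log2 fold changes were 0.037 for Scn8a (SE 0.10), 0.15 for Scn1a (SE 0.10), 0.24 for Scn2a (SE 0.11), 0.041 for Scn3a (SE 0.11), 0.036 for Scn7a (SE 0.15) and 0.0996 for Scn9a (SE 0.16), with limma adjusted p from 0.71 to 0.94. With each library set relative to its 12 pan-neuronal marker genes, they were 0.32 for Scn8a, 0.36 for Scn1a, 0.46 for Scn2a, 0.28 for Scn3a, 0.22 for Scn7a and 0.35 for Scn9a. With estimated library weights, Scn2a (0.52), Scn9a (0.56) and Scn1a (0.34) passed the threshold (limma adjusted p = 0.0389, 0.0389 and 0.0467), in a fit that called 1627 genes and gave wild type replicates 1 to 4 weights of 0.153, 0.988, 5.09 and 0.423. Scn8a was at 0.14 in that fit.

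**Figure D3:**
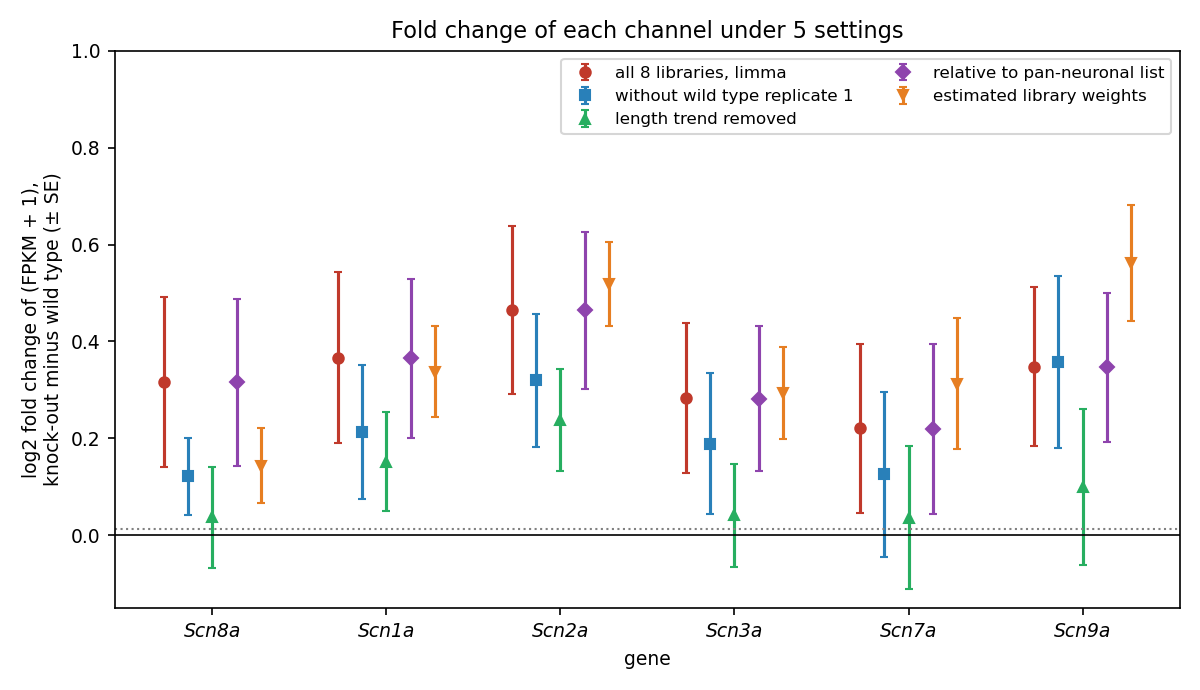
Log2 fold change of FPKM + 1, miR-96 knock-out minus wild type, with SE, for each Nav alpha gene under 5 settings, where the dotted line is the median of all tested genes. Removing the length trend brings Scn8a, Scn3a and Scn7a to 0.036 to 0.041. Setting libraries relative to neuronal markers, whose mean was alike in both genotypes, could move the values little.

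**Figure D4:**
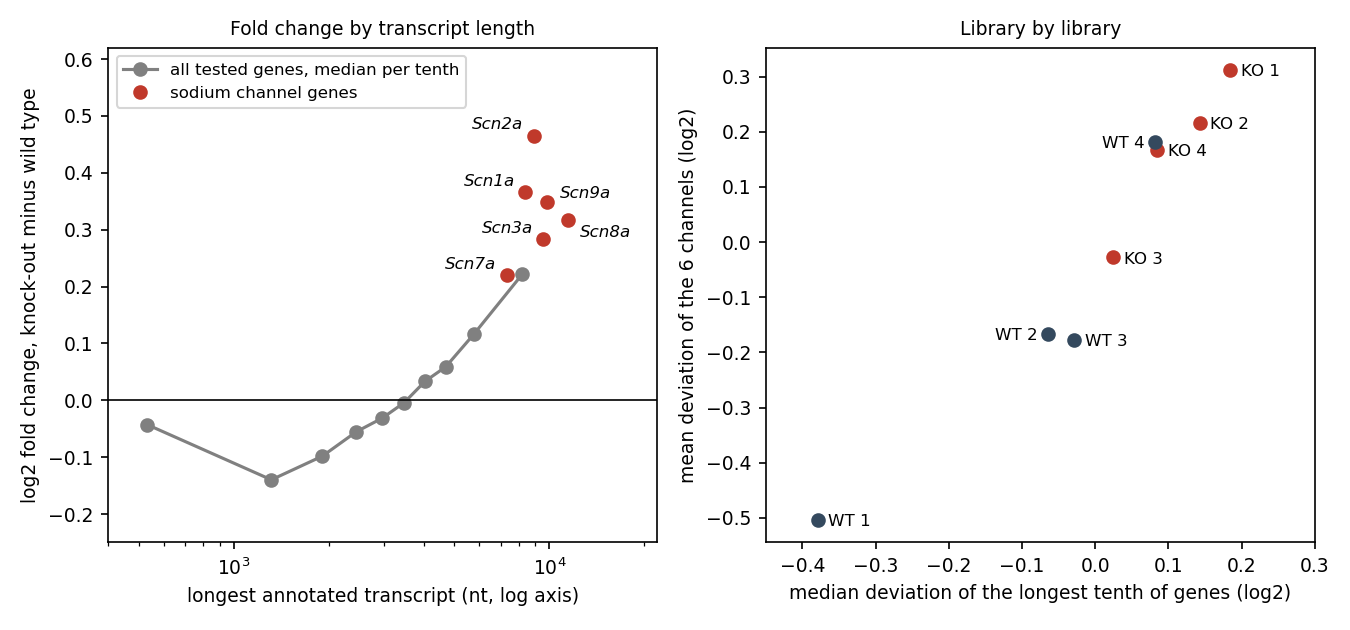
Left, log2 fold change against the length of the longest annotated transcript (log axis), as the median of each 10% of tested genes (grey) and for the 6 channels (red). Right, for each library, the median log2 deviation of the longest 10% of genes and the mean deviation of the 6 channels, with miR-96 knock-out (KO) in red and wild type (WT) in blue, where wild type replicate 1 stands apart at -0.38 and -0.50.

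Scn10a and Scn11a, the tetrodotoxin-resistant channels of nociceptors, were next to absent except in a single library. Scn10a was at 0.387 FPKM in knock-out replicate 3, about 106 fragments, and at 0.0112 FPKM in knock-out replicate 1. It was at 0.00614 FPKM in wild type replicate 3 and listed at 0 in the other 5 libraries. Scn11a was at 0.167 FPKM in knock-out replicate 3, about 40.0 fragments. It was at 0.0264 and 0.0281 FPKM in knock-out replicates 2 and 4 and at 0.00462 FPKM in wild type replicate 4, and was listed at 0 in the other 4 libraries. Scn4a was at 0.0834 FPKM in knock-out replicate 3 and 0.0464 FPKM in wild type replicate 3, about 22.5 and 11.3 fragments. It was at no more than 0.0176 FPKM in the other 6 libraries and listed at 0 in knock-out replicate 4. All 3 were under the limit for testing and no fold change is given for them. The fragment counts are approximate, since they assume the longest annotated transcript of each gene.

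Of 8 markers of sensory ganglion neurons, 2 also peaked in knock-out replicate 3. The share of all genes that peaked in that library was not counted. Mrgprd, a receptor of non-peptidergic nociceptors, was at 0.0701 FPKM there and listed at 0 in the other 7 libraries. Avil, advillin, was at 1.64 FPKM there, against 0.308 to 0.683 FPKM elsewhere. Other markers of the list did not follow: P2rx3 was at 1.47 FPKM in that library and up to 2.11 FPKM in wild type replicate 3, and Trpv1 at 0.0810 FPKM, against 0.235 FPKM in knock-out replicate 1. The summed list was 31.9 to 67.7 FPKM in knock-out and 19.9 to 65.4 FPKM in wild-type libraries, with its value in knock-out replicate 3 the lowest of the knock-out group. Most of that value came from Calca (18.4 FPKM) and Prph (8.89 FPKM). Prph is also on the list of motor neuron markers, so the sum is not specific to ganglion neurons. The summed motor neuron list was likewise lowest of the knock-out group in that library, at 16.7 FPKM. The summed list of 6 skeletal muscle markers was 1.90 FPKM in knock-out replicate 3 and 1.93 FPKM in wild type replicate 3, within the 0.79 to 3.26 FPKM of the other libraries. The part of other tissues in these 3 genes was not tested.

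**Figure D5:**
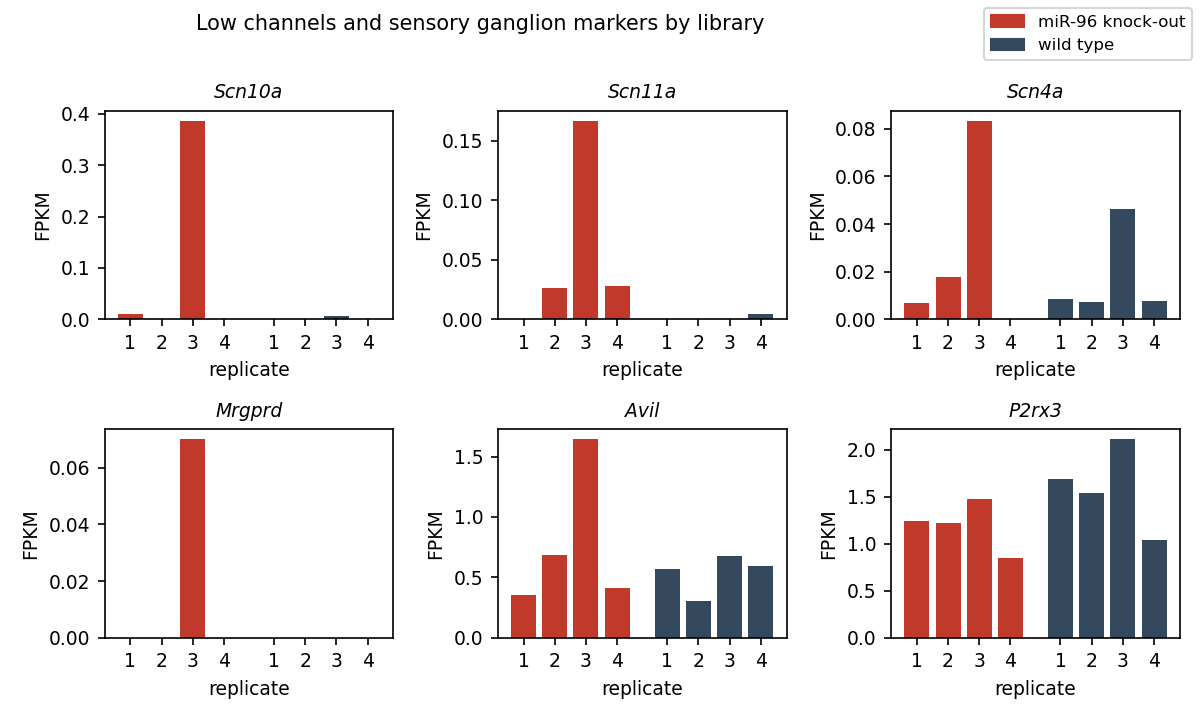
FPKM of Scn10a, Scn11a and Scn4a and of the sensory ganglion markers Mrgprd, Avil and P2rx3 in each library, 4 miR-96 knock-out (red) left of 4 wild type (blue). The other markers of that list are not drawn, and none of them was highest in knock-out replicate 3. Knock-out replicate 3 is highest for Scn10a (0.387), Scn11a (0.167), Scn4a (0.0834), Mrgprd (0.0701) and Avil (1.64), but not for P2rx3, which is highest in wild type replicate 3 (2.11).

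The positions of the channel genes are also shared. Scn3a, Scn2a, Scn1a, Scn9a and Scn7a lie in this order within chr2:65457118-66784914, a stretch of 1327797 bp that holds 8 protein-coding genes. The other 3 are not channel genes. Csrnp3, between Scn2a and Scn1a, averaged 27.7 FPKM in knock-out and 21.8 FPKM in wild type, a log2 fold change of 0.36 (SE 0.17). Ttc21b, a ciliary gene, had 0.24 (SE 0.15), and Galnt3 was under the limit, at 0.846 FPKM in knock-out and 0.771 FPKM in wild type. Csrnp3 and Ttc21b lay in the range of the channels around them, 0.22 to 0.47. So did Scn8a on another chromosome, at 0.32, and the longest 10% of all tested genes had a median of 0.22. A part of position in these values was not tested. Scn8a stands alone on chromosome 15, Scn10a and Scn11a are on chromosome 9 and Scn4a on chromosome 11.

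Proteins that accompany the pore were read from a list of 22 auxiliary and anchoring genes, all of them tested. None passed limma's adjusted threshold, 1 had an unadjusted p under 0.05 with a higher value in knock-out and none with a lower one (against 3.69% and 1.83% of all tested genes), and 16 of 22 had a log2 fold change above 0 (53.1% of all tested genes), with a median of 0.095 (0.014 over all tested genes). The gene of lowest p was Ank3, ankyrin-G, which holds the channels at the axon initial segment and node, with 154 ± 20.2 FPKM in knock-out and 112 ± 23.6 FPKM in wild type (SD, n = 4 each), which gave 0.48 on the log2 scale (SE 0.17, limma adjusted p = 0.62). The cell adhesion genes of the same sites followed, Nfasc at 0.21 (SE 0.10), Nrcam at 0.33 (SE 0.18) and Cntn1 at 0.20 (SE 0.11). Beta subunits flank the pore and modify its gating, and Scn2b, Scn3b and Scn4b were at 0.091 (SE 0.15), 0.053 (SE 0.13) and -0.023 (SE 0.13). Of 7 genes known to regulate sodium channel transcripts, none had an unadjusted p under 0.05 and all 7 were above 0, with a median of 0.15. Over all tested genes 5.52% had such a p and 53.1% were above 0, with a median of 0.014. Pum2, an RNA-binding repressor, was at 0.18 (SE 0.11) and Rest, a repressor of neuronal genes, at 0.24 (SE 0.14). The splicing factors Rbfox1 and Rbfox2 were at 0.15 (SE 0.15) and 0.13 (SE 0.15). Mean log2(FPKM + 1) of the 7 regulators was 5.37, 5.35, 5.27 and 5.42 in knock-out replicates 1 to 4. It was 4.97, 5.18, 5.19 and 5.49 in wild type replicates 1 to 4, the last above every knock-out library. The 22 partners averaged 6.14, 6.18, 6.11 and 6.15 in knock-out and 5.86, 6.08, 6.07 and 6.18 in wild type. The part of wild type replicate 1 and of transcript length in both counts was not tested.

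Genes with the pattern most like each channel over the 8 libraries were found by Pearson's r of log2(FPKM + 1) among 13208 other protein-coding genes. These values are a description, since each is the highest of many and the 8 points share each library's depth and length trend. Scn8a was closest to Slc9a7 (r = 0.996), Cdh6 and Ptcd3, Scn1a to Hecw1 (r = 0.996), Atad2b and Atp13a3, and Scn2a to Armcx4 (r = 0.994), Rab3c and Dock10. Scn3a was closest to Ckap5 (r = 0.995), Ankrd29 and Appl1, Scn9a to Cdc73 (r = 0.985), Atrx and Ube3a, and Scn7a to Pcdhb18 (r = 0.967), Gulp1 and Lrrc7. Among the channels themselves, r was 0.95 to 0.96 for the 3 pairs of Scn1a, Scn2a and Scn3a, and 0.37 for Scn8a with Scn9a, the lowest of the 15 pairs.

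Markers of the labelled tissue were present in every library. The 14 dorsal horn neuron markers summed to 677 to 890 FPKM in knock-out and 766 to 934 FPKM in wild type, and the 12 pan-neuronal markers to 4384 to 4903 FPKM in knock-out and 4666 to 5146 FPKM in wild type. Median log2 fold changes were -0.17 for dorsal horn neuron and -0.067 for pan-neuronal markers. The 6 motor neuron markers ranged widely in both genotypes, 16.7 to 75.9 FPKM in knock-out and 14.5 to 62.8 FPKM in wild type (median log2 fold change of the 5 tested 0.24). Sensory ganglion (4 of 8 tested) and skeletal muscle markers (1 of 6 tested) had medians of 0.035 and -0.26. Medians were -0.17 for oligodendrocyte, 0.22 for oligodendrocyte precursor, 0.059 for astrocyte, 0.028 for microglia, -0.056 for endothelial, 0.30 for meningeal fibroblast and -0.052 for Schwann cell markers. Summed oligodendrocyte markers were highest in wild type replicate 1, at 12699 FPKM against 7808 to 9680 FPKM in the other 7 libraries. Summed precursor markers were lowest in that library, at 21.9 FPKM against 31.6 to 41.7 FPKM. Liver genes summed to 25.1 to 48.7 FPKM in knock-out and 1.28 to 9.95 FPKM in wild type (median 1.52). All 5 had an unadjusted p under 0.05 and were higher in knock-out, against 3.69% of all tested genes. Of the other lists, 1 of 12 pan-neuronal and 1 of 4 oligodendrocyte precursor markers had such a p with a higher value in knock-out, and 1 of 14 dorsal horn markers, Npy, with a lower one (1.83% of all tested genes). Blood genes reached 185 FPKM in wild type replicate 1, against 5.05 to 34.6 FPKM in the other 7 libraries (median -0.40). No gene of these 14 lists passed limma's adjusted threshold, and their part in the channel values was not tested. The pan-neuronal scaling above is no such test, since the mean of that list was alike in both genotypes.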

How the data were processed

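RNA of the lumbar dorsal horn was measured in 8 libraries made with a NEBNext Ultra kit from polyadenylated RNA, per the labels' protocols. HISAT2, SAMtools and Cufflinks are named in the submitters' processing notes. Not given in the sources used here were versions, options and any use of strand. Each deposited table holds FPKM per gene that the authors computed, per the file headers. The notes list the build mm8, but the deposited loci of all 9 channel genes, and of 91.5% of genes with a symbol, equal the GRCm38 annotation (GENCODE M21), so coordinates are on GRCm38, numbered from 1. Library depth was estimated from genes with 1 annotated transcript of at least 3000 nt, as the scale at which low FPKM values become whole fragments: 97.9% to 99.3% of such values lay within 0.15 of a whole number, against 30% by chance.

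The genotypes were compared with limma 3.58.1 in R 4.3.3 on log2(FPKM + 1), with the trend and robust settings of eBayes and two-sided p-values. Genes that averaged 1 FPKM or more were tested, and p-values were adjusted over all of them by Benjamini-Hochberg (threshold 0.05). The added 1 makes fold changes of low genes too small. limma was tested on simulated data with independent noise for each gene. The simulation held no length trend and no shift of a whole library, so it does not cover those. Shares were compared with an exact permutation test over the 70 assignments of libraries. Named genes are the 9 channels, up to 4 of lowest p from each of the lists of partners and regulators, and the 3 most similar genes per channel. Others were named after their values were seen: the remaining beta subunits, single markers, cluster neighbours and Gm13629. The members and lists were chosen with earlier results of these data known. Mir96, Mir182 and Mir183 were listed at 0 FPKM in all libraries, but polyA libraries do not capture mature microRNAs, so the genotype labels could not be checked this way.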

Additional observations from a re-analysis of the deposited data

Results flagged for a closer look

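In groups of 4 libraries, a value was looked at again when its gap to the nearest other library as a share of the group's range exceeded Dixon's 95% critical value. Chance passes about 1 in 20 groups, and 8 of 34 groups screened did so, several of which share a library or rest on values near 0. In knock-out, replicate 3 had the highest Scn10a (0.387 FPKM) and Scn11a (0.167 FPKM), and the lowest Scn9a, 1.32 FPKM and 0.569% of the summed channels, far from the other 3 knock-out libraries. It also had the highest Scn8a share, 56.7%. In wild type, Scn4a stood out in replicate 3 (0.0464 FPKM), Scn10a in replicate 3 (0.00614 FPKM) and Scn11a in replicate 4 (0.00462 FPKM), the last 2 being the only wild-type values above 0.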

How the results depend on the processing

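The direction of all 6 fold changes held under every alternative run, but the share of all tested genes above 0 was not counted in those runs. The call of no gene over the table held except with library weights (1627 genes) and in the leave-one-out fits (0 to 1 genes, the 1 without knock-out replicate 2). Weights alone took channels past the threshold: Scn1a 0.34, Scn2a 0.52 and Scn9a 0.56. Over the leave-one-out fits the log2 fold changes ranged from 0.12 to 0.40 for Scn8a, 0.21 to 0.50 for Scn1a, 0.32 to 0.63 for Scn2a, 0.19 to 0.42 for Scn3a, 0.13 to 0.35 for Scn7a and 0.29 to 0.47 for Scn9a, with limma adjusted p of at least 0.198. The lowest values came without wild type replicate 1, except for Scn9a, where they came without wild type replicate 3. Differences in share, knock-out minus wild type in percentage points, changed sign in leave-one-out runs for Scn8a (-3.34 to 0.42), Scn1a (-0.88 to 1.42), Scn3a (-0.20 to 0.079) and Scn7a (-0.085 to 0.065), and for Scn9a after quantile normalization (-0.0086); the cause was not tested. Leave-one-out differences were 0.48 to 1.60 for the Scn2a share, 0.0083 to 0.18 for the Scn9a share, 0.071 to 0.31 for the log2 ratio and 30.8 to 65.7 FPKM for the sum. With 3 against 4 libraries the smallest exact two-sided p is 0.0571. Scn7a and Scn9a have no value under a minimum mean of 5 FPKM. A pseudocount of 0.1 raised Scn9a to 0.53 and Scn7a to 0.34. Libraries that share a replicate number were not paired, since their deviations from the genotype means correlated at -0.11, -0.055, 0.024 and 0.14 for numbers 1 to 4 (1 of 4 knock-out libraries was closest to its own number). The replicate block called 0 genes (790 at unadjusted p under 0.05, against 831) and left Scn2a at 0.47 (limma adjusted p = 0.65). At this depth Scn4a, Scn10a and Scn11a rest on at most about 22.5, 106 and 40.0 fragments per library, if all came from the longest annotated transcript. The lowest Scn4a count above 0 came to 1.87 fragments (wild type replicate 2), not a whole number, so these counts are approximate.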
